A study of Homo sapiens with 9 samples.

Results

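The clustered protocadherins are a family of cell adhesion genes that lie in 3 neighbouring clusters, alpha, beta and gamma, on the long arm of human chromosome 5. Members were taken as every gene in the count files whose symbol is PCDHA, PCDHAC, PCDHB, PCDHGA, PCDHGB or PCDHGC followed by a number, with pseudogenes ending in P left out. This gave 53 of 63677 gene identifiers, of which 16 belong to the alpha cluster, 16 to the beta cluster and 21 to the gamma cluster. PCDHA14 is included by its symbol although the annotation lists it as a transcribed pseudogene, and PCDHGB5 was not analysed here. On GRCh37 the members run from chr5:140165721 to chr5:140892544, all on the plus strand.

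The study asked how the transcriptome of a colorectal cancer cell line differs once the BASP1 gene, which encodes a membrane and nuclear signalling protein, is expressed. SW480 is an established cell line of human colon adenocarcinoma. The SW480-B line consists of SW480 cells that received a BASP1 expression plasmid with a cytomegalovirus promoter, were selected with G418 and were grown from a single cell, so that this line is 1 clone. SW480-gRNA-B-all cells carry lentiviral MS2-P65-HSF1 and dCas9-VP64 activators and a pool of guide RNAs directed to the BASP1 promoter. They were made from a single-cell clone that carried both activators, and were selected with hygromycin and puromycin. Each line was sequenced as 3 libraries of poly(A) RNA (9 libraries), and no line with an empty vector or with activators but no guides was among them. The labels give the same treatment entry, BASP1 activation, to all lines including unmodified SW480, so the lines were told apart by their names. BASP1 itself stood at 11.9, 8.03 and 0.691 CPM (counts scaled to library size with TMM factors) in SW480, at 268, 268 and 250 CPM in SW480-B, and at 167, 303 and 300 CPM in SW480-gRNA-B-all.

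Clustered protocadherins are single-pass membrane proteins with extracellular cadherin repeats that bind the same isoform on a neighbouring cell. Neurons choose a few members each, by promoter choice that involves DNA methylation, the factor CTCF and cohesin, and use the resulting code to tell their own branches from those of other cells. The last members of the alpha and gamma clusters, called C-type, are less subject to this choice. In colorectal tumours the region is known for promoter methylation, and PCDHGC3 is among the genes described in that setting.

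Each alpha or gamma gene joins its own large first exon to constant exons at the end of its cluster, whereas each beta gene has exons of its own. In the annotation, 15 alpha members shared 2866 bases of constant exon and 21 gamma members shared 2177 bases. Fragments that fell on more than 1 gene were left out by the counting. The counts of alpha and gamma members were therefore taken to come from the bases that each holds alone in the annotation used here. These are 48.7% of the exon bases of PCDHA1 and 59.9% of those of PCDHGC3. Which bases the counts cover is not known, since the authors' annotation may differ. Statements on the leading member of the beta or gamma cluster therefore use CPM per kilobase of own exon. Shares, sums, detection limits and the choice of members to name use counts or CPM without this scaling.

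The promoters of the members share short sequence elements, and those of the genes on which the results below turn are shown here. RefSeq windows on GRCh38.p14, from 250 bases before to 50 bases after the start, were found for 46 of the 53 members. The letters CGCT, the core of the conserved element of protocadherin promoters, occurred on either strand in 45 of these windows (97.8%), against 69.4% of 27305 promoters in all. The longer run GGTGGCGCT, which was picked after the sequences were seen and contains CGCT, occurred in 13 of the 14 beta windows and in 0.524% of all promoters. The run GCCGCTGTT, picked in the same way, occurred in 6 of the 17 windows of gamma A and B members and in 0.304% of all promoters. A core of the CTCF motif was searched on both strands as well and occurred in 1 of the 46 windows (2.17%) and in 4.71% of all promoters. In the stretches below, all on the plus strand of GRCh38.p14, the capitals mark 1 occurrence of CGCT.
PCDHB5, chr5:141135183-141135210: gacgcctggtggCGCTgcaggctaagag
PCDHB13, chr5:141213869-141213896: gacgcgtggtggCGCTgcaggataagaa
PCDHB14, chr5:141223267-141223294: gacacatggtggCGCTacaggataagac
PCDHGA9, chr5:141402718-141402745: gactctgagcgcCGCTgttgatcaactc
PCDHGA10, chr5:141412935-141412962: gactctgagcgcCGCTgttcacctacta
PCDHGC3, chr5:141475884-141475911: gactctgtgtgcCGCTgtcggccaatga
The 3 beta stretches are alike around the element, as are the 2 from gamma A members, and that of PCDHGC3 begins as the gamma A stretches do.

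PCDHAC2, the last member of the alpha cluster, had neither of the longer runs. Its whole window, on the plus strand at chr5:140966226-140966525, is given because this gene was the member whose level differed most clearly between the lines. CGCT or its reverse complement is in capitals at 4 places. These letters also occurred in 69.4% of all promoters, so the 4 places do not show that PCDHAC2 carries the conserved element of protocadherin promoters.
PCDHAC2: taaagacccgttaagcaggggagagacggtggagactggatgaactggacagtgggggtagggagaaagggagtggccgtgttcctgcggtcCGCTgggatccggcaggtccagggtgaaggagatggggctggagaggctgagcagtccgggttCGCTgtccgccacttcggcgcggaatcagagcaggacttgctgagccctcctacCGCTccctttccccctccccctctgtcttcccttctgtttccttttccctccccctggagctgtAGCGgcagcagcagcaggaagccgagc
That a run of letters is present or absent in these windows says nothing on whether a factor binds there.

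Libraries held 25238831 to 29355669 counts on genes, and 3 counts, taken as the limit that a count of 0 allows, stand for 0.10 to 0.116 CPM. This limit and the intervals below cover counting error only. Replicates of SW480 spread widely: between 12.3% and 29.3% of genes with at least 50 counts in total in a pair of SW480 replicates differed by more than 2-fold. Within SW480-gRNA-B-all, replicates 2 and 3 were far closer to each other (0.232%) than any other pair (8.76% to 29.3%), and since they still differed beyond sampling noise (chi-square per degree of freedom 3.34) they were kept as 2 samples. The sources do not say whether the libraries of a line came from separate cultures, so p-values measure the spread between these libraries, which may be technical. The epithelial genes EPCAM and KRT8 were at 281 CPM or more in every library, while KRT20 was at 0.896 CPM or less in every library.

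**Figure D1:**
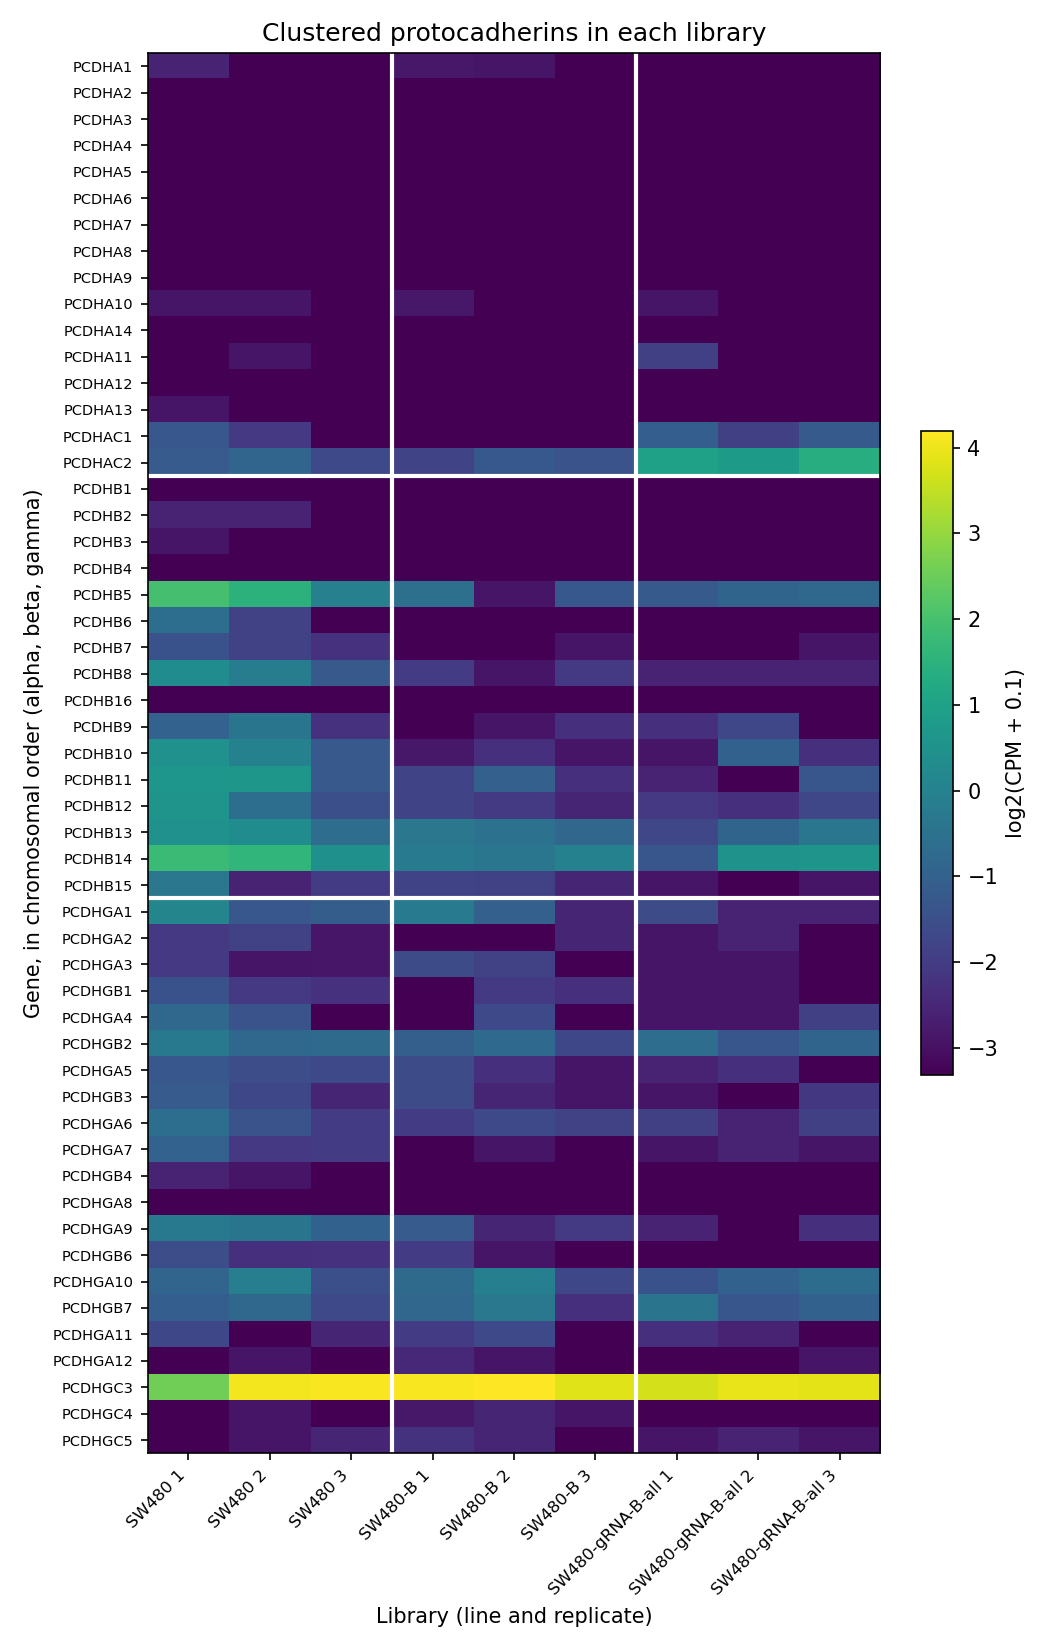
Level of each of the 53 members (rows, in chromosomal order, white lines between the alpha, beta and gamma clusters) in each of the 9 libraries (columns), as log2(CPM + 0.1) on the colour scale. PCDHGC3 is the brightest row in every library, most beta rows are brightest in replicates 1 and 2 of SW480, and PCDHAC2 is brightest in the 3 SW480-gRNA-B-all libraries.

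Most members had few or no counts in any line. Over the 9 libraries, 14 of the 53 members had no count, 9 had between 1 and 9 counts, 21 had between 10 and 99, and 9 had at least 100. The members at 0 were 10 of the alpha cluster, 3 of the beta cluster (PCDHB1, PCDHB4 and PCDHB16) and PCDHGA8, and their names were looked up after their values were seen. For PCDHB16 and PCDHGA8 it is not known whether another identifier took their fragments, so these zeros may not be measurements. PCDHA14 has no exon bases of its own in the annotation used, so that its 0 may be fixed by the counting. Members at 1 CPM or more numbered 8, 5 and 2 in SW480, 1 in each SW480-B library, and 2, 3 and 3 in SW480-gRNA-B-all. With such levels only 12 members had enough counts to be tested in any comparison, and those that passed only through the line in which they were high had to differ, so no count over the tested members is used as evidence of a direction.

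The member genes together took 840, 977 and 673 counts in SW480, 628, 693 and 506 in SW480-B and 562, 644 and 686 in SW480-gRNA-B-all. Their makeup differed between lines more than their sum. The beta members held 55.0%, 34.9% and 17.5% of the member counts in SW480, 8.95% to 12.5% in SW480-B, and 6.76% to 14.1% in SW480-gRNA-B-all. The alpha C-type members held 0.892% to 2.26% in SW480, 0.796% to 1.58% in SW480-B and 8.23% to 12.2% in SW480-gRNA-B-all. The beta shares of both lines that express BASP1 lay below all of SW480, and the alpha C-type shares of SW480-gRNA-B-all lay above those of the 6 other libraries. These shares are descriptions, since 1 gene's counts change the share of every other.

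**Figure D2:**
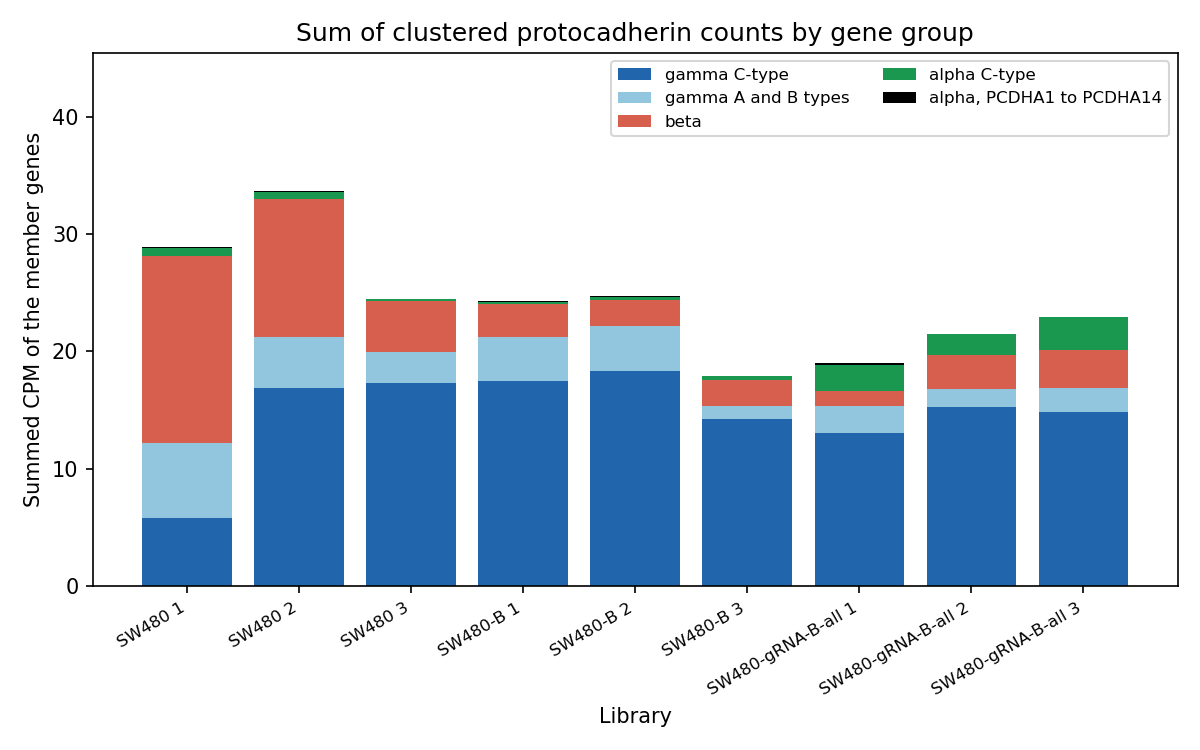
Summed CPM of the member genes in each library, stacked by gene group. The blue part (gamma C-type, nearly all PCDHGC3) is 5.82 CPM in replicate 1 of SW480 and 13.0 to 18.4 CPM in the other 8 libraries, the red part (beta) is largest in SW480, and the green part (alpha C-type) is largest in SW480-gRNA-B-all.

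In the alpha cluster, PCDHA1 to PCDHA14 were close to absent and the C-type members carried nearly all counts. The 14 genes named PCDHA had 6 counts in all in SW480, 3 in SW480-B and 6 in SW480-gRNA-B-all, and 10 of them, PCDHA14 included, had none. The highest single value was 0.169 CPM, for PCDHA11 in replicate 1 of SW480-gRNA-B-all, from 5 counts that were not matched in the other libraries of that line. PCDHA1 reached 0.0689 CPM in replicate 1 of SW480, and PCDHA10 did not exceed 0.0387 CPM in any library. At this depth no difference between lines was detectable for these genes.

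PCDHAC2 was higher in SW480-gRNA-B-all than in either other line. It encodes a C-type alpha protocadherin, and in mice this isoform is known from serotonergic neurons. Its level was 0.344, 0.448 and 0.218 CPM in SW480, 0.193, 0.321 and 0.283 CPM in SW480-B, and 1.86, 1.60 and 2.47 CPM in SW480-gRNA-B-all, from 48 to 74 counts per library in the last. The 3 SW480-gRNA-B-all libraries were above the 6 others, and the SW480 and SW480-B libraries overlapped. PCDHAC2 was the 1 member of 53, and of the 10 tested there, with all SW480-gRNA-B-all libraries above all of SW480. This order was held by 19.1% of all tested genes. On the log2 scale the difference was 2.53 ± 0.42 (standard error, n = 3 per line) against SW480, with an adjusted p of 0.0206 in edgeR's quasi-likelihood test. Against SW480-B it was 2.87 ± 0.40, with an adjusted p of 0.00575 in the same test. This second comparison is the direct test of whether the lines that express BASP1 differ, and PCDHAC2 was called in it whichever library was left out (adjusted p 0.0128 to 0.0355 over 6 fits). Against SW480 the call was lost when SW480 replicate 2 (adjusted p 0.0789) or SW480-gRNA-B-all replicate 1 (0.0660), 2 (0.0855) or 3 (0.105) was left out, with log2 differences between 2.35 and 2.82 in those 4 fits. Few genes of any kind were called in these fits: 1 higher and 7 lower without SW480 replicate 2, and 14 to 34 higher and 62 to 144 lower without a SW480-gRNA-B-all library, against 304 and 751 with all 6 libraries. It was also lost when the closely alike replicates 2 and 3 of SW480-gRNA-B-all were summed into 1 sample (0.0857).

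PCDHAC1, its C-type neighbour, was seen in the same line and in SW480, but at lower counts. It had 9, 4 and 0 counts in SW480, 0 in each SW480-B library, and 11, 5 and 10 in SW480-gRNA-B-all. The SW480-gRNA-B-all total of 26 counts was at least 8.37-fold higher than that of SW480-B, taking 3 counts over the line as the limit for 0, and the SW480 total of 13 counts was at least 4.14-fold higher than that of SW480-B, or at least 1.92-fold without SW480 replicate 1. PCDHAC1 had too few counts for the main test. When every gene with a count was tested in edgeR, its adjusted p was 0.00526 for SW480-gRNA-B-all against SW480-B. In the same setting it was not called against SW480, with an adjusted p of 0.547 for SW480-gRNA-B-all and 0.182 for SW480-B.

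**Figure D3:**
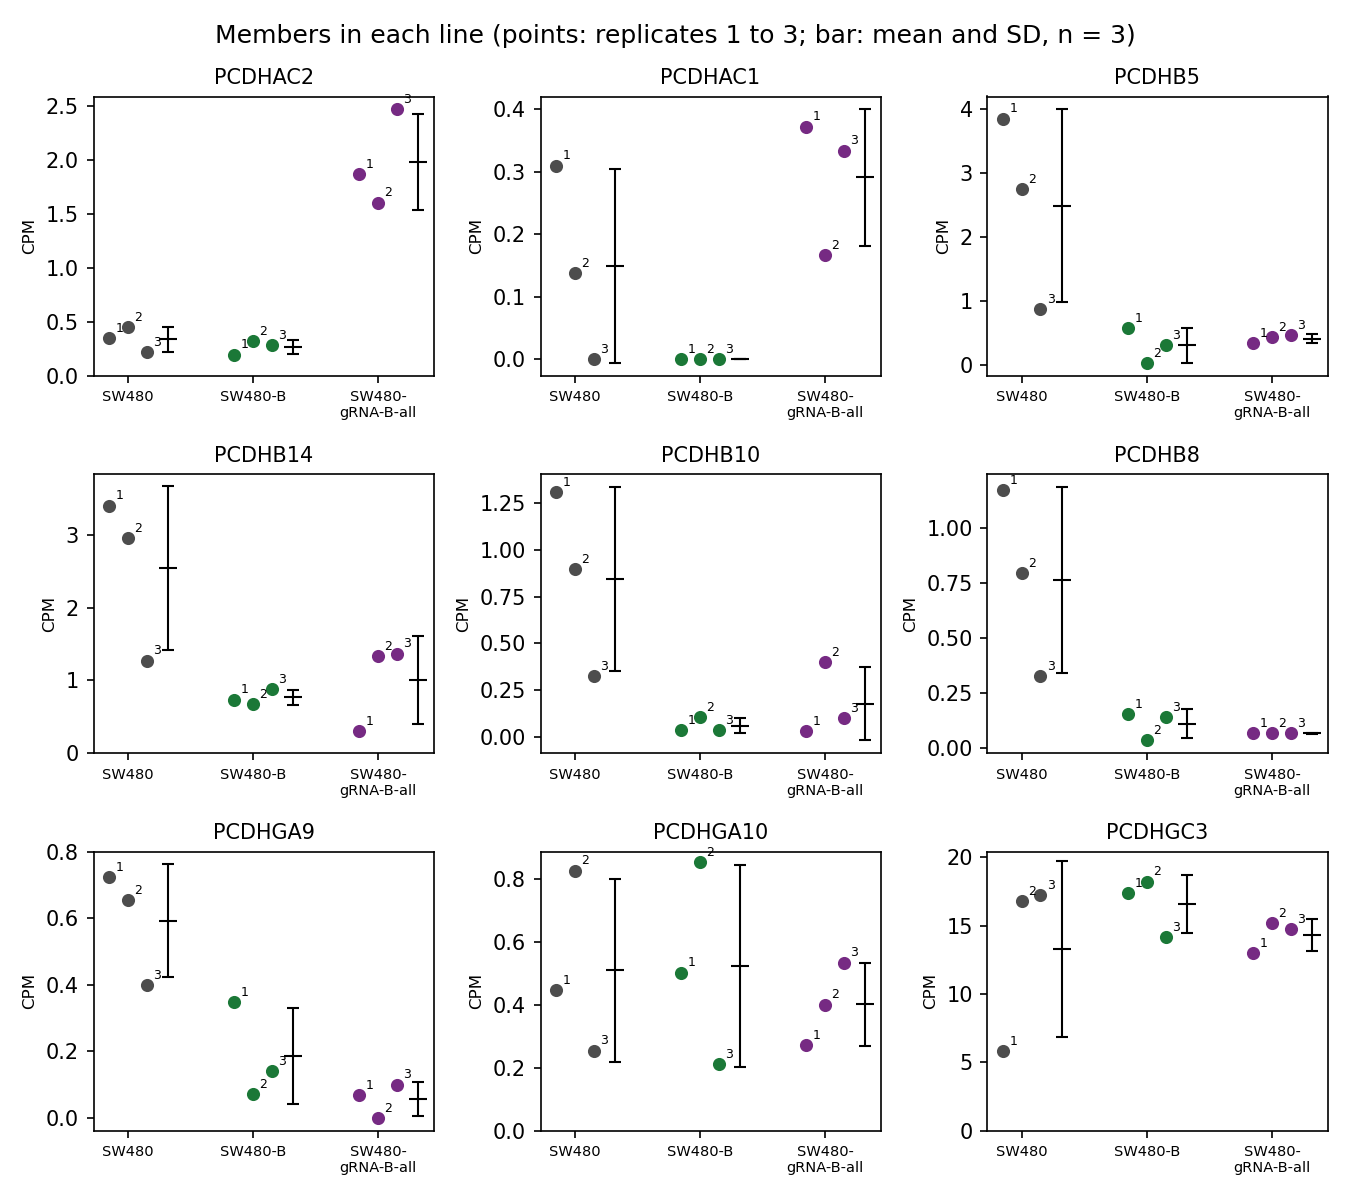
CPM of 9 members in each line, with 1 point per library (numbers give the replicate) and the mean with its SD beside them (n = 3). PCDHAC2 lies at 1.60 CPM or more in the 3 SW480-gRNA-B-all libraries and at 0.448 CPM or less in the others, and the beta members and PCDHGA9 lie highest in replicates 1 and 2 of SW480.

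The beta cluster was highest in SW480, with a wide spread between its replicates. The summed level of the 16 beta members was 15.9, 11.7 and 4.29 CPM in SW480, 2.78, 2.21 and 2.23 CPM in SW480-B, and 1.29, 2.97 and 3.24 CPM in SW480-gRNA-B-all. Every SW480 library was above every library of the other lines, and replicate 3 of SW480 was the closest to them. Of the 16 members, 13 had a lower mean than SW480 in each of the lines that express BASP1, and the 3 others were at 0 throughout. Of all genes with a count, 52.9% in SW480-B and 56.7% in SW480-gRNA-B-all had a log2 difference from SW480 below 0. Among the 13, PCDHB2 and PCDHB3 had 4 and 1 counts, all in SW480, so a lower mean was fixed for them. All libraries of SW480-B were below all of SW480 for 7 of the 16 (43.8%), against 11.4% of all 16106 tested genes. For SW480-gRNA-B-all this held for 6 of the 16 (37.5%), against 18.6% of all 16100 tested genes. The sets are unlike, since most of the 16 had too few counts to be tested. Among the 4 beta members tested in each comparison, the order held for 2 in SW480-B and for 1 in SW480-gRNA-B-all. Both comparisons use the same SW480 libraries, so they are not independent of each other. In bulk RNA, fewer cells that express a gene and less RNA per cell cannot be told apart.

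PCDHB5 was the leading beta member of SW480 per kilobase of own exon, at 0.732 ± 0.442 CPM per kb (SD, n = 3), followed by PCDHB14 at 0.577 ± 0.255, a difference within their spread. PCDHB5 encodes a beta protocadherin with a single coding exon. Its level was 3.86, 2.76 and 0.873 CPM in SW480, 0.580, 0.0356 and 0.318 CPM in SW480-B, and 0.339, 0.434 and 0.468 CPM in SW480-gRNA-B-all. The lowest SW480 library was above all 6 others. SW480-gRNA-B-all had less PCDHB5 than SW480, which was called (log2 difference -2.59 ± 0.59, adjusted p 0.0461 in edgeR). Against SW480-B the difference from SW480 was of like size (-2.95 ± 0.87) but did not pass the test (adjusted p 0.171). The lines that express BASP1 overlapped, with a log2 difference of 0.41 between them whose 95% interval ran from -0.99 to 1.81.

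PCDHB14 showed the same order of lines at 3.41, 2.96 and 1.27 CPM in SW480, 0.734, 0.677 and 0.883 CPM in SW480-B, and 0.305, 1.34 and 1.37 CPM in SW480-gRNA-B-all. The SW480-B libraries lay below all of SW480, while replicates 2 and 3 of SW480-gRNA-B-all lay just above SW480 replicate 3. It was called by edgeR in neither comparison with SW480 (adjusted p 0.171 in SW480-B and 0.215 in SW480-gRNA-B-all), while DESeq2 called it lower in SW480-B (-1.70, adjusted p 0.0280). PCDHB13 stood at 1.31, 1.17 and 0.546 CPM in SW480, at 0.459 to 0.696 CPM in SW480-B and at 0.203 to 0.668 CPM in SW480-gRNA-B-all, and was called in no comparison. PCDHB11 stood at 1.45, 1.48 and 0.327 CPM in SW480, at 0.193, 0.392 and 0.106 CPM in SW480-B and at 0.0677, 0 and 0.301 CPM in SW480-gRNA-B-all. The difference of SW480-B from SW480 had an adjusted p of 0.215 in edgeR. For SW480-gRNA-B-all it had too few counts for the main test, and DESeq2 called it lower (-3.10, adjusted p 0.0282).

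PCDHB8 and PCDHB10 are named after their values were seen, because they were called under some alternatives. PCDHB8 had 34, 23 and 9 counts in SW480, 4, 1 and 4 in SW480-B and 2 in each SW480-gRNA-B-all library. With no filter on low counts the decrease in SW480-gRNA-B-all was called (log2 difference -3.38, adjusted p 0.0173 in edgeR). PCDHB10 had 38, 26 and 9 counts in SW480, 1, 3 and 1 in SW480-B and 1, 12 and 3 in SW480-gRNA-B-all, and with no filter it was called lower in SW480-B (-3.68, adjusted p 0.0119 in edgeR). PCDHB11 and PCDHB12 were called lower in SW480-gRNA-B-all when SW480 replicate 3 was left out (adjusted p 0.0485 and 0.0300 in edgeR). PCDHB6, named after its values were seen as a member listed in SW480 alone, had 16, 5 and 0 counts in SW480 and none in the 6 other libraries. This is at least 6.69-fold lower in SW480-B and at least 6.93-fold lower in SW480-gRNA-B-all, and without SW480 replicate 1 at least 2.40-fold and 2.48-fold. It was not called with no filter (adjusted p 0.109 and 0.134 in edgeR).

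The gamma cluster held the most abundant member. PCDHGC3, a C-type gamma protocadherin, had 4.08 ± 1.98 CPM per kb of own exon in SW480, 5.10 ± 0.655 in SW480-B and 4.39 ± 0.358 in SW480-gRNA-B-all (SD, n = 3), above every other member in each line. Its level was 5.82, 16.8 and 17.2 CPM in SW480, 17.4, 18.2 and 14.2 CPM in SW480-B, and 13.0, 15.2 and 14.8 CPM in SW480-gRNA-B-all. SW480 replicate 1 was far below replicates 2 and 3 of its line. Replicates 2 and 3 of SW480 lay within the range of SW480-B and above all SW480-gRNA-B-all libraries. The lines that express BASP1 overlapped. The log2 difference from SW480 was 0.35 in SW480-B, with a 95% interval from -0.45 to 1.16, and 0.10 in SW480-gRNA-B-all, from -0.69 to 0.89. The lines that express BASP1 differed by -0.22, from -0.59 to 0.16. Without SW480 replicate 1 the differences from SW480 were -0.0078 and -0.24. PCDHGC4 and PCDHGC5, the other C-type gamma members, had at most 3 counts in any library.

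PCDHGA9 was the only gamma member called in any comparison. It had 0.723, 0.655 and 0.400 CPM in SW480, 0.348, 0.0713 and 0.141 CPM in SW480-B, and 0.0677, 0 and 0.10 CPM in SW480-gRNA-B-all. All 6 libraries of the lines that express BASP1 were below all of SW480. The decrease in SW480-gRNA-B-all was called (log2 difference -3.32 ± 0.73, adjusted p 0.0419 in edgeR), on 5 counts in that line against 51 in SW480, and that in SW480-B missed the threshold (-1.62 ± 0.66, adjusted p 0.286). The 3 other tested A and B members named here, PCDHGA10, PCDHGB2 and PCDHGB7, did not share this order. PCDHGA10 was at 0.448, 0.827 and 0.255 CPM in SW480, 0.502, 0.855 and 0.212 CPM in SW480-B and 0.271, 0.401 and 0.534 CPM in SW480-gRNA-B-all, which overlapped. PCDHGB2 and PCDHGB7 lay between 0.106 and 0.723 CPM in all libraries and overlapped as well. Of the 18 A and B members, 2 (11.1%) had all SW480-B libraries below all of SW480, close to the 11.4% of all tested genes. In SW480-gRNA-B-all this order held for 7 (38.9%), against 18.6% of all tested genes. All of these 7 but PCDHGA9 had too few counts to be tested there. PCDHGA3 among them had 4, 1 and 1 counts in SW480 and 1, 1 and 0 in SW480-gRNA-B-all. Among the 5 gamma members tested there, the order held for 1.

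Counted over all 53 members, 1 was called higher and 2 were called lower when SW480-gRNA-B-all was set against SW480, among 10 that could be tested. The background there was 6.55% of all genes tested, of which 1.89% higher and 4.66% lower. For SW480-B against SW480, edgeR called 0 of 10 tested members, with a background of 1.34%, of which 0.0931% higher and 1.25% lower. At an unadjusted p under 0.05, 4 members were lower there and 0 higher, and DESeq2 called 4 lower and 0 higher. In SW480-gRNA-B-all against SW480-B, edgeR called 1 of 8 tested members higher and 0 lower, with a background of 6.68%, of which 2.31% higher and 4.37% lower. No member was lower there at an unadjusted p under 0.05 in edgeR. DESeq2 called 0 lower of 34 members tested, beside 1021 lower of 28799 genes tested.

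The calls of PCDHB5 and PCDHGA9 were lost when SW480 replicate 1 (adjusted p 0.0741 and 0.0706) or replicate 2 (0.146 and 0.144), or any library of SW480-gRNA-B-all (0.120 to 0.165), was left out. Except without SW480 replicate 1, these are the fits in which few genes of any kind were called. Over all 6 fits the log2 differences ran from -2.96 to -2.13 for PCDHB5 and from -3.97 to -2.75 for PCDHGA9. Both calls were also lost when the closely alike pair of SW480-gRNA-B-all libraries was summed (0.156 and 0.0921), and that of PCDHB5 in the joint fit of 9 libraries (0.0519). Without SW480 replicate 3, the library of that line with the lowest beta level, 14 members were tested in each comparison. Of these, 4 were called lower in SW480-B and 5 in SW480-gRNA-B-all. More genes of any kind were called lower in these fits as well. They numbered 695 of 16868 tested in SW480-B and 1698 of 16846 in SW480-gRNA-B-all, against 201 and 751 with all 6 libraries. The 4 in SW480-B were PCDHB5 (adjusted p 0.0492), PCDHB8 (0.0464), PCDHB10 (0.0164) and PCDHB14 (0.0494).

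**Figure D4:**
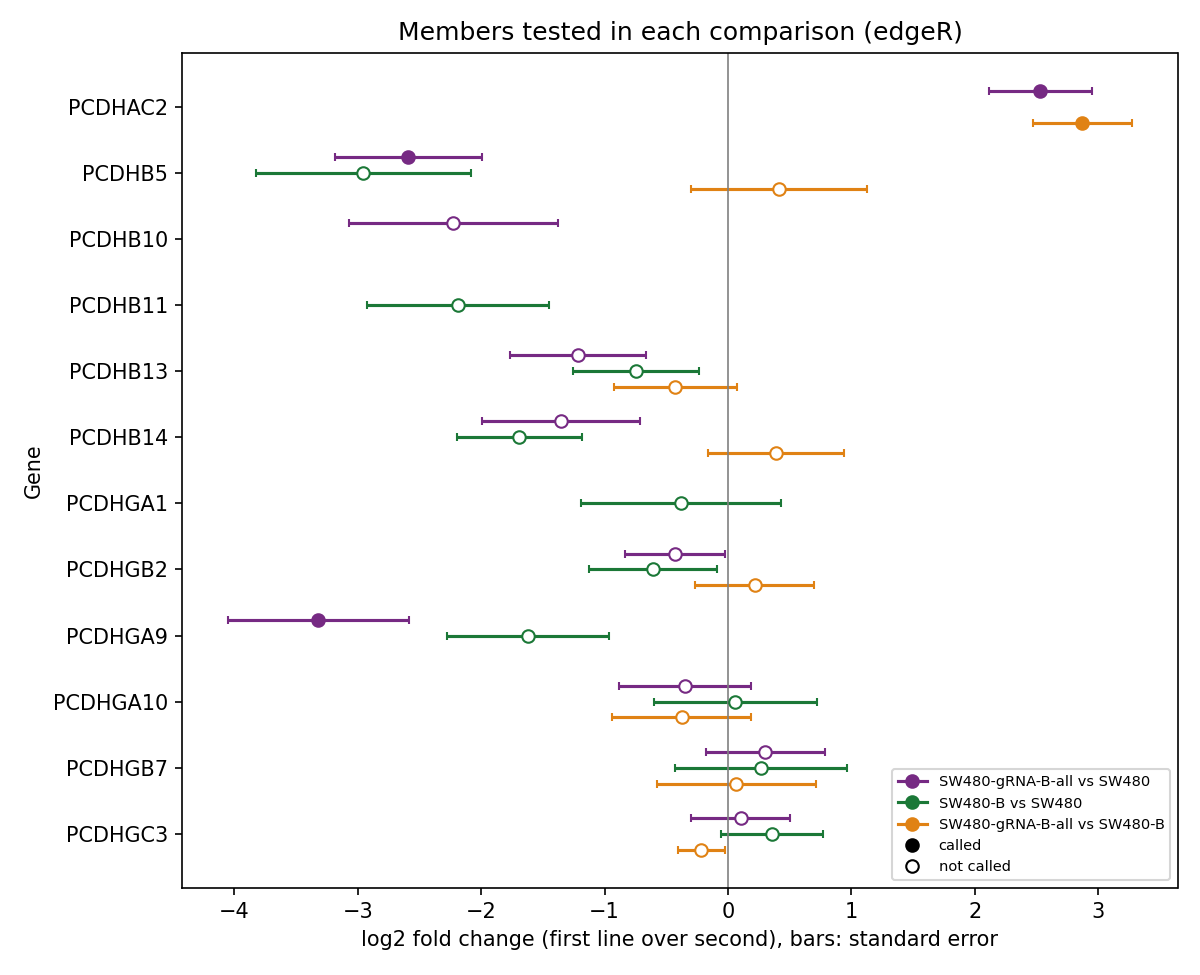
Log2 fold change of each member that could be tested, first line over second, with its standard error, in the 3 comparisons (n = 3 libraries per line). Filled points are called, which holds for PCDHAC2 in the comparisons of SW480-gRNA-B-all with both other lines and for PCDHB5 and PCDHGA9 in that with SW480, and a gene without a point in a comparison had too few counts to be tested.

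Some other genes had the same order as the beta members across the SW480 libraries. Among the 11 beta members with at least 10 counts in SW480, replicate 3 held the lowest level for 10 and replicate 1 the highest for 9. Among the 13 gamma A and B members with as many counts, replicate 3 was the lowest for 9 and replicate 1 the highest for 10. The share of all genes with this order was not taken. SYT1, a synaptic vesicle calcium sensor, was at 187, 93.4 and 41.0 CPM in SW480, 23.7, 24.7 and 29.7 CPM in SW480-B, and 3.93, 0.134 and 0.0668 CPM in SW480-gRNA-B-all. The summed level of the 9 neuron markers found in the files was 47.0 to 210 CPM in SW480, 30.1 to 33.8 CPM in SW480-B and 1.90 to 6.27 CPM in SW480-gRNA-B-all, with the neuronal markers RBFOX3 and NEFM at 0 counts throughout. SYT1 made up most of this sum in SW480. SNAP25 of the same list had another order, at 0.723, 1.55 and 0.946 CPM in SW480, 3.18 to 3.81 CPM in SW480-B and 0.406 to 1.00 CPM in SW480-gRNA-B-all. The summed level of the 10 markers of colon epithelium was 8327 to 10974, 6991 to 11359 and 6331 to 7805 CPM in SW480, SW480-B and the third line. Of these, CDH17 and VIL1 were called lower in both lines that express BASP1, while CDX2 was called in SW480-gRNA-B-all alone, at 2.37 to 5.52 CPM, and stood at 58.2 to 67.4 CPM in SW480-B against 30.4 to 41.9 CPM in SW480. The summed levels of 7 fibroblast and 5 leukocyte markers did not exceed 10.9 and 2.87 CPM in any library. The part that these genes and the spread among the SW480 replicates have in the beta results was not tested.

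The protocadherins outside the clusters, which lie singly at other places in the genome or nearby, included the most strongly reduced genes of the family. Of the 11 found in the files, 5 could be tested against SW480, and PCDH19, PCDH15 and PCDH9 were called lower in both lines that express BASP1. PCDH19, which acts in neuronal adhesion, was at 464, 281 and 41.4 CPM in SW480, 0.348, 0.0356 and 0 CPM in SW480-B, and 0.0339, 0 and 0.0334 CPM in SW480-gRNA-B-all. Its adjusted p in edgeR was 0.0118 for SW480-B and 0.00779 for SW480-gRNA-B-all. PCDH15, part of the tip link of inner ear hair cells, had 613, 207 and 42 counts in SW480 and none in SW480-gRNA-B-all, at least 284-fold lower, or at least 124-fold without SW480 replicate 1. PCDH9 had 432, 263 and 81 counts in SW480 and none in SW480-gRNA-B-all, at least 256-fold lower, or at least 171-fold without SW480 replicate 1. In both genes, as in the beta members, SW480 replicate 3 was the lowest of its line, at 1.53 CPM for PCDH15 and 2.95 CPM for PCDH9. Against SW480-gRNA-B-all, the calls of PCDH15 and PCDH9 were lost without SW480 replicate 2 or any library of SW480-gRNA-B-all (adjusted p up to 0.130 and 0.0954), and that of PCDH19 without SW480 replicate 2 (0.0501). Against SW480-B, the calls of PCDH15, PCDH9 and PCDH19 were lost without any library of SW480-B, and those of PCDH15 and PCDH9 also without SW480 replicate 2 (adjusted p up to 0.215, 0.184 and 0.130 in that order of genes). The fits without a SW480-B library called at most 2 genes of any kind higher and 14 lower, so these lost calls say little on the 3 genes. Their log2 differences over the 6 fits were -7.21 or lower for PCDH15, -7.17 or lower for PCDH9 and -10.28 or lower for PCDH19. PCDH1, which lies within 1 Mb of the clusters, was at 21.6 to 59.6 CPM in SW480, 54.9 to 122 CPM in SW480-B and 55.6 to 121 CPM in SW480-gRNA-B-all and was called in no comparison.

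**Figure D5:**
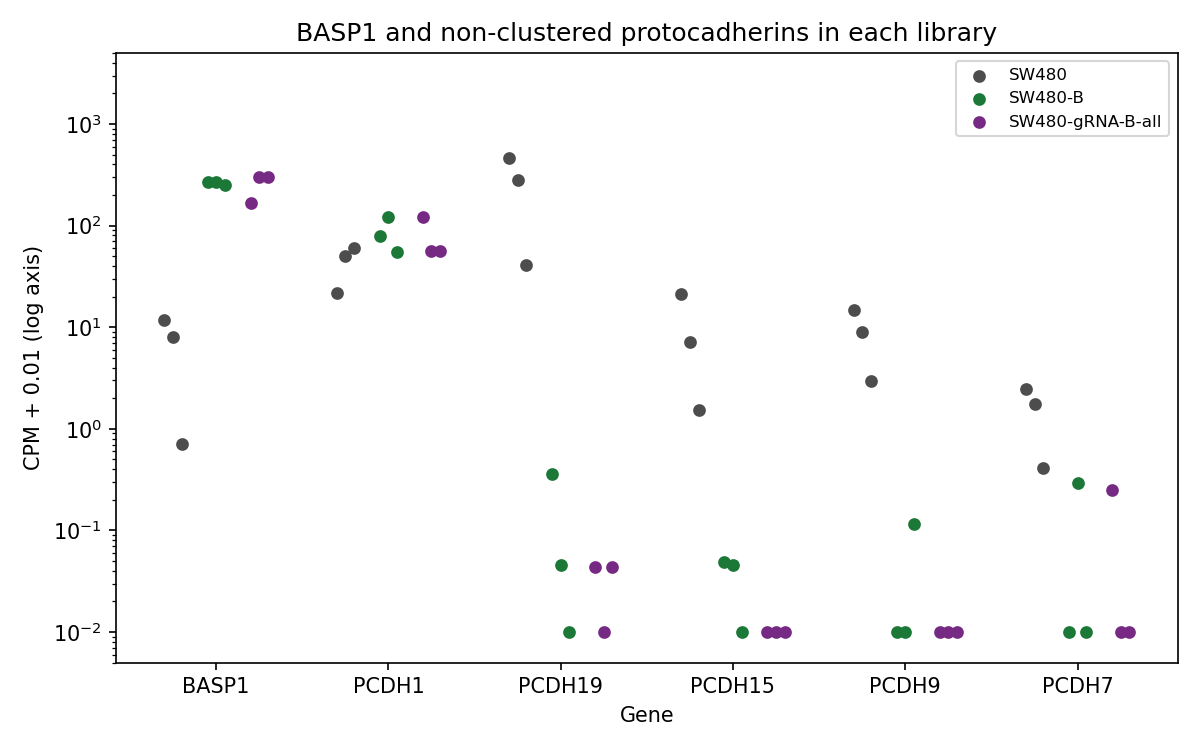
CPM + 0.01 on a log axis for BASP1 and 5 non-clustered protocadherins, with 1 point per library in each of the 3 lines. PCDH19, PCDH15 and PCDH9 lie at 1.53 CPM or more in the SW480 libraries and at 0.348 CPM or less in the others, while PCDH1 lies between 21.6 and 122 CPM throughout.

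The genes around the clusters mostly did not pass the test. Of 38 other protein-coding genes within 1 Mb, 33 could be tested in each comparison. FCHSD1, which encodes an F-BAR protein of the actin and membrane machinery, was called higher in SW480-gRNA-B-all against SW480, at 12.8, 15.1 and 17.2 CPM in SW480 and 38.7, 30.4 and 31.9 CPM in SW480-gRNA-B-all (log2 difference 1.15, adjusted p 0.0231 in edgeR). The call was lost without SW480 replicate 2 or any library of SW480-gRNA-B-all (adjusted p up to 0.102). No neighbour was called in the other comparisons. The median log2 difference of the tested neighbours was 0.21 in SW480-gRNA-B-all against SW480, 0.02 in SW480-B against SW480 and 0.19 between the lines that express BASP1, beside -0.05, -0.0039 and -0.0044 over all genes tested. TAF7, a general transcription factor subunit whose gene lies between the beta and gamma clusters, was at 101 to 147 CPM in every library and was called in no comparison.

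Among 25 genes for factors that act on protocadherin promoters or on DNA methylation, all could be tested and 3 were called. TET1, TET2 and TET3, which oxidize methylated cytosine, were called lower in SW480-gRNA-B-all against SW480 (log2 differences -2.37, -2.08 and -1.87, adjusted p 0.0284, 0.0256 and 0.0498 in edgeR). TET1 stood at 8.12, 10.3 and 3.71 CPM in SW480, 1.58, 1.21 and 1.59 CPM in SW480-B and 1.19, 1.70 and 1.40 CPM in SW480-gRNA-B-all. TET2 stood at 102, 76.5 and 37.9 CPM in SW480, 15.1 to 23.9 CPM in SW480-B and 13.5 to 19.5 CPM in SW480-gRNA-B-all. TET3 stood at 196, 136 and 51.5 CPM in SW480, 35.4 to 73.8 CPM in SW480-B and 34.6 to 36.0 CPM in SW480-gRNA-B-all. SW480 replicate 3 was again the lowest of its line for each. The calls of TET1 and TET2 were lost without SW480 replicate 2 or any library of SW480-gRNA-B-all (adjusted p up to 0.125 and 0.109), and that of TET3 was kept only without SW480 replicate 3 (up to 0.164 otherwise) and was lost under 5 of 7 other settings. None of the 25 was called in the main fit of SW480-B against SW480 or between the lines that express BASP1. In SW480-B against SW480 the log2 differences were -2.30 for TET1, -1.83 for TET2 and -1.34 for TET3. Of 6 other settings in that comparison, 3 called TET1, 4 called TET2 and 0 called TET3. CTCF, which binds protocadherin promoters, was at 80.8 to 136 CPM in all libraries. The median log2 difference of the list against SW480 was -0.34 in SW480-B and -0.39 in SW480-gRNA-B-all, beside -0.0039 and -0.05 over all genes tested.

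Of 18 reported genes for cytoplasmic partners and signalling proteins of protocadherins, 17 could be tested and none was called against SW480 in the main fits. Between the lines that express BASP1, FYN, a kinase that binds alpha protocadherins, was lower in SW480-gRNA-B-all (log2 difference -1.74, adjusted p 0.0194 in edgeR). It stood at 255, 157 and 108 CPM in SW480, 207, 232 and 114 CPM in SW480-B, and 81.1, 40.8 and 43.9 CPM in SW480-gRNA-B-all. The SW480-gRNA-B-all libraries were below the 6 others. The call was lost without SW480-B replicate 1 or 2 or SW480-gRNA-B-all replicate 2 or 3 (adjusted p up to 0.0836). Against SW480, the log2 difference of FYN in SW480-gRNA-B-all was -1.65. It was called lower there in 4 of 7 other settings and in 1 of 6 fits with a library left out.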

How the data were processed

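Stranded poly(A) libraries, 3 per line, were made and sequenced by a company for the authors. Reads were aligned to GRCh37 (submitters' processing notes) and deposited as counts of fragments per Ensembl gene. The counting program and its setting are not given in the sources used here. Lines that name no gene (on no gene 5.22% to 9.93%, on more than 1 gene 3.09% to 3.44% of a library) stayed out. The deposited read metrics were not used. Symbols were matched for 55665 identifiers, and exon bases were taken from GENCODE on GRCh37, which may differ from the authors' annotation. The 3 pairs of lines were each fitted over 6 libraries and all genes with edgeR 4.0.16 in R 4.3.3 (filterByExpr with least count 10 and least total 15, TMM, glmQLFit robust, glmQLFTest). A gene was called at a Benjamini-Hochberg adjusted p under 0.05 and above 2-fold. The standard error is the log2 fold change over the root of F. CPM use TMM factors over 9 libraries, and 3 counts over a line stand for 0 in a bound. Tests were tried on simulated data.

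Members and lists were chosen with earlier results of these data known. Named are members called in any comparison, the 3 highest per cluster and line by mean CPM, all C-type members, BASP1, TAF7 and at most 5 called genes per list and comparison. One gene of the partner list is not reported here. PCDH20, CYFIP1, MARCKS and NEFL were not matched. Deviations of same-numbered libraries correlated at 0.305, 0.404 and 0.397 between SW480-B and SW480, but differently numbered libraries were not compared. Whether libraries of equal number were made together is not known. The main fit was unpaired, and the replicate block changed no member's call in that comparison (0 higher, 0 lower). Alternatives were RLE factors, DESeq2 1.42.0, a filter of 1 CPM in 3 or more libraries or none, 1 joint fit of the 9 libraries, the block, no fold limit, other detection limits (0.5 CPM, 10 counts), summing the closely alike pair of SW480-gRNA-B-all libraries, and leaving out each library.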

Additional observations from a re-analysis of the deposited data

Results flagged for a closer look

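SW480-gRNA-B-all was tested directly against SW480-B with edgeR, and 1 of the members and 1 of the partner genes were called. No regulator, neighbour or non-clustered protocadherin was called. Of the cell type markers, 1 of colon epithelium and 2 of neurons were called lower in the same fit. PCDHAC2 was higher in SW480-gRNA-B-all by 2.87 on the log2 scale (adjusted p 0.00575, 3 of 3 libraries above all of SW480-B). FYN was lower, at -1.74 (adjusted p 0.0194, 3 of 3 libraries below all of SW480-B). Both lines also differ in vector, selection and clone, which cannot be told apart from the way BASP1 was expressed.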

How the results depend on the processing

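Depth left 41 of the 53 members with too few counts to be tested in any comparison. The count of members called higher in SW480-gRNA-B-all against SW480 was 0 with replicates 2 and 3 of that line summed, and 0 to 1 with a library left out. Over all genes, 20 were called higher with the replicates summed and 1 to 961 with a library left out, against 304 in the main fit. The count of members called lower there was 0 with at least 1 CPM in at least 3 libraries, 1 with all 9 libraries in 1 fit and 3 with no filter. It was 4 by DESeq2, 0 with the replicates summed and 0 to 5 with a library left out. In the same order of settings, 602, 1064, 946, 1520, 77 and 7 to 1698 of all genes were called lower, against 751 in the main fit. In SW480-B against SW480 the count of members called lower was 2 with no filter, 4 by DESeq2 and 0 to 4 with a library left out. Over all genes these settings called 537, 730 and 0 to 695 lower, against 201 in the main fit. In SW480-gRNA-B-all against SW480-B the count of members called higher was 2 with no filter and 2 by DESeq2. Over all genes these settings called 502 and 556 higher, against 366 in the main fit. The causes were not tested.

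Same-numbered libraries deviated together less evenly in the comparisons with SW480-gRNA-B-all (correlations of 0.312, -0.0131 and 0.293 with SW480, and 0.267, -0.0993 and 0.285 with SW480-B). Whether these libraries share more than a number is not known either. With the replicate block, 1 member was called higher and 0 lower against SW480, and 1 higher and 0 lower against SW480-B. The members lost under the block were PCDHB5 (adjusted p 0.0700 in edgeR) and PCDHGA9 (0.0657).

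With a library left out, these log2 differences changed sign. For SW480-gRNA-B-all against SW480 they ran from -0.24 to 0.35 for PCDHGC3, -0.65 to 0.22 for PCDHGA10, -0.037 to 0.60 for PCDHGB7 and -0.0069 to 0.22 for TAF7. For SW480-B against SW480 they ran from -0.0078 to 0.59 for PCDHGC3, -0.47 to 0.59 for PCDHGA10, -0.30 to 0.73 for PCDHGB7 and -0.12 to 0.50 for FYN. For SW480-gRNA-B-all against SW480-B they ran from -0.12 to 1.20 for PCDHB5, -0.061 to 0.50 for PCDHGB2, -0.75 to 0.17 for PCDHGA10, -0.39 to 0.65 for PCDHGB7, -0.15 to 0.22 for BASP1, -0.14 to 0.045 for TAF7, -0.16 to 0.10 for TET1 and -0.056 to 0.53 for FCHSD1. With the replicates summed, TAF7 was at 0.033 in that comparison.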

Other observations

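The 4 protocadherin pseudogenes that the annotation places among the clusters, PCDHB17P, PCDHB18P, PCDHB19P and PCDHGB8P, held at most 4 counts in any library. Counts of sparse gamma members went both ways between the lines that express BASP1. PCDHGB6 had 5 counts over SW480-B and 0 over SW480-gRNA-B-all, and PCDHGA7 had 1 count over SW480-B and 4 over SW480-gRNA-B-all, a ratio of 3.86 with a 95% counting interval from 0.382 to 190. Both were picked after their values were seen.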
